A study of Mus musculus with 16 samples.

Results

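The genes described here are 8 that mark or hold together lung epithelium: the keratins Krt7, Krt8, Krt18, Krt19, Krt14 and Krt15, the plakin Dsp (desmoplakin) and the mucin Muc1. They were found by their symbols in the platform annotation, which gave 11 of the 12488 probe sets of the Affymetrix U74Av2 array, with 2 probe sets each for Krt18, Krt19 and Dsp and 1 for every other gene. The signals came from whole-lung total RNA of mice with and without T1α. At embryonic day 18.5 (E18.5) there were 5 T1α(-/-) lungs, named A, B, C, D and E, and 5 T1α(+/+) lungs, named I, J, K, L and M. At term there were 3 T1α(-/-) lungs, named F, G and H, and 3 T1α(+/+) lungs, named N, O and P. Each lung had an array of its own. T1α (Pdpn) is a membrane protein of the flat type I alveolar cell. The T1α(-/-) mice lack it in every cell, all animals came from matings of heterozygous parents, and term pups were taken soon after delivery. Litter and sex were not given in the sources used here.

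Keratins are the intermediate filaments of epithelia, built from pairs of a type I and a type II chain. Krt8 and Krt7 are type II chains and Krt18 and Krt19 are type I chains of simple epithelium, the single-layered lining of airways and air spaces, and Krt8 pairs mainly with Krt18. Krt14 and Krt15 are type I chains of basal cells, the stem cells under stratified and tracheal epithelium. Desmoplakin ties keratin filaments to the desmosome, the junction that holds neighbouring epithelial cells together. Muc1 is a membrane-bound mucin of the apical surface of lung epithelium.

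The labels were checked with the signals of Pdpn itself. At E18.5 it read 1.4 to 21.2 in T1α(-/-) and 60.2 to 135.5 in T1α(+/+) lungs (log2 fold change -2.10, SE 0.28, adjusted p = 0.00938). At term it read 8.6 to 30.0 in T1α(-/-) and 39.7 to 214.9 in T1α(+/+) lungs (-1.86, SE 0.47, adjusted p = 0.9998). At both times Pdpn passed the low-signal filter given below only through T1α(+/+) lungs, so that a lower level in T1α(-/-) lungs was favoured by the filter. Lung identity was clear in every library by Sftpc, the surfactant protein of type II cells. At E18.5 its mean was 17890 ± 5169 in T1α(-/-) and 16650 ± 6035 in T1α(+/+) lungs (SD, n = 5 each), with the lowest lung at 9662. At term it read 5027 to 7866 in T1α(-/-) and 5203 to 6709 in T1α(+/+) lungs. This was lower than at E18.5 in T1α(-/-) (-1.45, adjusted p = 0.00242) and T1α(+/+) lungs (-1.45, adjusted p = 0.0126). At term the 3' to 5' signal ratio of GAPDH was 2.63 in lung G, 2.55 in O and 1.84 in N. It was 1.11 in F, 0.83 in H and 0.85 in P, and at most 1.72 (lung B) at E18.5. That of actin was 2.72 in N, 1.30 to 1.97 in the other term lungs and at most 1.91 (lung D) at E18.5. The paper's quality check accepts ratios of this size. Their part in the changes over time, and in the effect of leaving out single lungs, was not tested. The median signal of an array lay between 35.8 and 61.0. The highest median belonged to T1α(+/+) lung I at E18.5, where probe sets for bacterial RNA that should be absent averaged 39.2, against 3.8 to 11.5 on the other arrays. The very bright probe sets were dimmer on term arrays: of 76 probe sets averaging between 1600 and 3200 in T1α(-/-) lungs, the median log2 fold change from E18.5 to term was -0.35, and of 73 such probe sets in T1α(+/+) lungs it was -0.49, against -0.06 and -0.04 over all probe sets tested. For those averaging over 3200 it was -0.90 in T1α(-/-) (67 probe sets) and -0.98 in T1α(+/+) lungs (63 probe sets). The part of this in the changes over time below was not tested. In whole-lung RNA, fewer cells of a type and less RNA per cell cannot be told apart.

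The start sites of Dsp and Muc1 are shown because these were the only 2 of the 8 genes with a change that passed the test. The sequences are the 250 bases before the RefSeq start of each gene in build GRCm38.p6, both on the plus strand, at chr13:38151044-38151293 for Dsp and chr3:89228806-89229055 for Muc1. Capitals mark the GC box GGGCGG and the TATA box TATAAA, each searched on both strands (a GC box on the minus strand reads CCGCCC here).
Dsp: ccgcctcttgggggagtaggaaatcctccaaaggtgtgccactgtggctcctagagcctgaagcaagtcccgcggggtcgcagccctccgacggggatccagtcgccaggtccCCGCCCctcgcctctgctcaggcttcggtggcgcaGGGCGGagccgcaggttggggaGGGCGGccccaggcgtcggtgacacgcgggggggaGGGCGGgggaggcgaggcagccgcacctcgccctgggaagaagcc
Muc1: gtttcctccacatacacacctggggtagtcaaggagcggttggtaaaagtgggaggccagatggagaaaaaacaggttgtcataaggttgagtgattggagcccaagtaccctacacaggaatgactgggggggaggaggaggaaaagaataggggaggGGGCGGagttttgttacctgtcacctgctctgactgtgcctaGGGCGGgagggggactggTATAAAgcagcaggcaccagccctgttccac
The Dsp window held 4 GC boxes and no TATA box, and the Muc1 window held 2 GC boxes and 1 TATA box that begins 31 bases before the start. Of 32851 RefSeq windows of this length, 32.7% held a GC box and 12.4% a TATA box. A match of letters is a description, not a site. Windows were at hand for 6 of the 8 genes (all but Krt15 and Krt19). Those of Krt8 and Krt18 held neither motif and that of Krt7 held 4 GC boxes, while the Krt14 window lies inside the gene as annotated and is not used here. Krt8 (chromosome 15, 101996711 to 102004342) and Krt18 (chromosome 15, 102028216 to 102032026) lie close together, and Krt7 is on the same chromosome. Krt15, Krt19 and Krt14 lie together on chromosome 11.

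Between genotypes, none of the 8 genes changed past the threshold at either time. A probe set was tested where its median signal in at least 1 group exceeded a low-signal limit, 53.4 at E18.5 and 47.7 at term, and fold changes are on the log2(signal + 16) scale. The same 7 probe sets of 6 genes passed this filter at both times: 1 each for Krt7, Krt8, Krt18, Dsp and Muc1, and both for Krt19. At E18.5, 0 of these 7 were called at an adjusted p under 0.05, where 0.034% of 5879 probe sets were. By unadjusted p under 0.05 the count was 1 of 7 (Muc1), against 5.31% of all. The test of the study's methods on linear signals called 0 members, adjusted or not. No member had signals that did not overlap between the genotypes, which 1.14% of all showed. All 7 fold changes were positive at E18.5, with a median of 0.21, where the median over all probe sets was 0.04. That of Dsp was 0.0017 and reversed in 6 of 21 alternatives. The 7 share arrays and 2 of them are of Krt19, so their signs are not separate results. At term 0 of 7 were called by adjusted p (0% of 5885 probe sets), 0 of 7 at an unadjusted p under 0.05 (0.68% of all) and 0 of 7 did not overlap (3.31% of all), with 5 positive and 2 negative fold changes and a median of 0.07 beside 0.01 over all. The genotype effect at term minus that at E18.5 was not called for any of the 7 either (0% of 6458 probe sets), with adjusted p = 0.9997 for each.

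**Figure D1:**
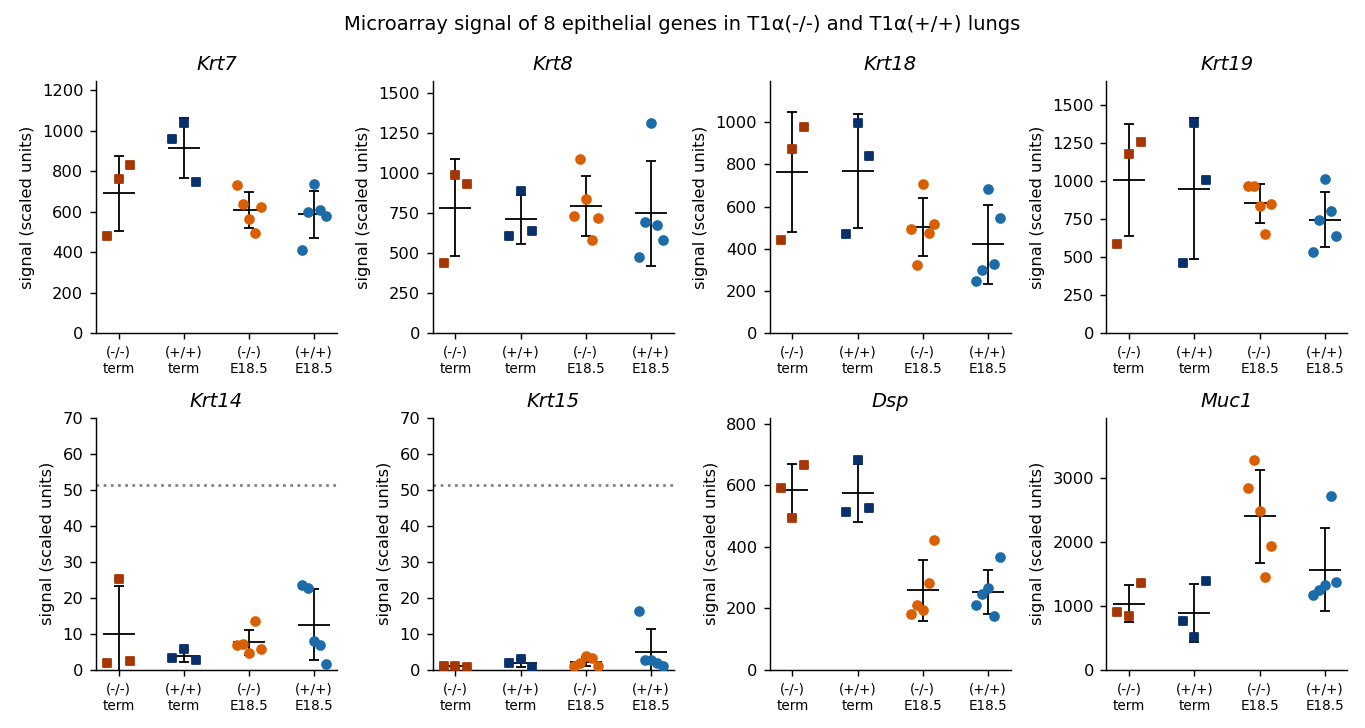
Signal in scaled array units (y axis) of 1 probe set per gene in T1α(-/-) and T1α(+/+) lungs at term (n = 3 each) and at E18.5 (n = 5 each). Each point is 1 lung, the bars are the mean and SD, and the dotted line in the panels of Krt14 and Krt15 is the low-signal filter of all arrays at 51.3. Dsp at term lies above every E18.5 lung, Muc1 in T1α(-/-) lungs is lower at term, and Krt14 and Krt15 lie under the dotted line in every lung.

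**Figure D2:**
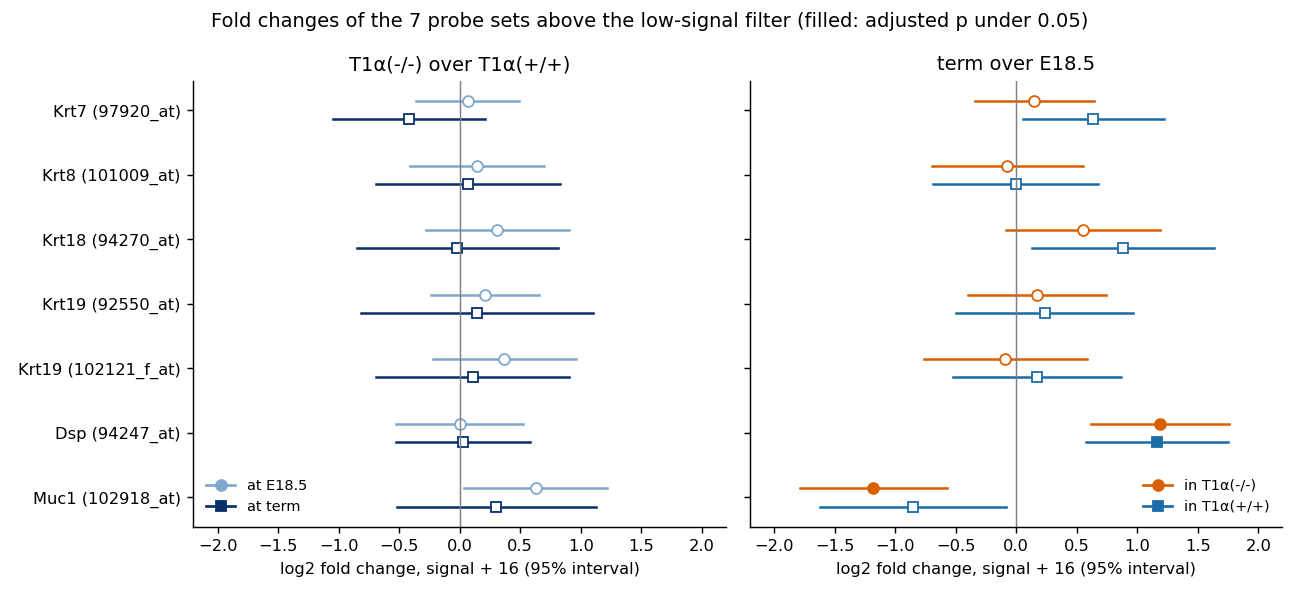
Log2 fold changes on the log2(signal + 16) scale (x axis) of the 7 probe sets above the filter, T1α(-/-) over T1α(+/+) on the left and term over E18.5 on the right, with the 95% interval of the limma fit as a line. Filled points passed an adjusted p of 0.05: Dsp in both genotypes and Muc1 in T1α(-/-) lungs, over time only.

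Krt8, the type II partner, gave 735, 1091, 840, 582 and 721 in T1α(-/-) mice A–E and 477, 693, 1313, 672 and 584 in T1α(+/+) mice I–M at E18.5. Apart from lung K the T1α(+/+) values lay inside or just under the T1α(-/-) range, and the groups overlapped widely. The means were 794 ± 190 in T1α(-/-) and 748 ± 327 in T1α(+/+) lungs (SD, n = 5 each), a log2 fold change of 0.14 (95% interval -0.41 to 0.69, adjusted p = 0.963). At term Krt8 read 435, 985 and 931 in T1α(-/-) mice F–H and 609, 888 and 638 in T1α(+/+) mice N–P (log2 fold change 0.07, interval -0.69 to 0.83, adjusted p = 0.9998). Lung F set the low end and lungs G and H the high end of both genotypes. Over time Krt8 differed little, by -0.07 in T1α(-/-) (interval -0.69 to 0.55) and -0.00 in T1α(+/+) lungs (interval -0.68 to 0.68).

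Krt18, the type I partner of Krt8, read 494, 323, 708, 474 and 518 in T1α(-/-) mice A–E and 245, 299, 684, 328 and 544 in T1α(+/+) mice I–M at E18.5. The T1α(+/+) lungs I and J sat under every T1α(-/-) lung, L near the lowest of them, and K and M in the upper part of their range (log2 fold change 0.31, interval -0.28 to 0.90, adjusted p = 0.893; exact permutation p = 0.381). At term the values were 443, 874 and 979 in T1α(-/-) lungs and 471, 996 and 841 in T1α(+/+) lungs, with means of 765 ± 284 in T1α(-/-) and 769 ± 270 in T1α(+/+) lungs (SD, n = 3 each). Term exceeded E18.5 by 0.55 in T1α(-/-) lungs (SE 0.29, adjusted p = 0.174) and by 0.88 in T1α(+/+) lungs (SE 0.35, adjusted p = 0.0903), neither past the threshold. The T1α(+/+) value was 1.08 without lung K (adjusted p = 0.0328) and 0.67 without lung O (adjusted p = 0.293). The T1α(-/-) value was 0.90 without lung F (adjusted p = 0.0561), 0.34 without lung H (adjusted p = 0.475) and 0.18 with array quality weights (adjusted p = 0.643).

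The standing of Krt8 to Krt18 differed between the times. Within an array the log2 difference Krt8 minus Krt18 shows only shifts between lungs, since signals of 2 probe sets are not on 1 scale. In T1α(-/-) lungs it was -0.02, 0.17 and -0.07 at term (F, G, H), against 0.56, 1.71, 0.24, 0.29 and 0.47 at E18.5 (A, B, C, D, E), so that every term lung lay under every E18.5 lung. In T1α(+/+) lungs it was 0.36, -0.16 and -0.39 at term (N, O, P), against 0.92, 1.17, 0.93, 1.0 and 0.10 at E18.5 (I, J, K, L, M), and lungs N and M overlapped. This difference was noticed in the values and was not tested.

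**Figure D3:**
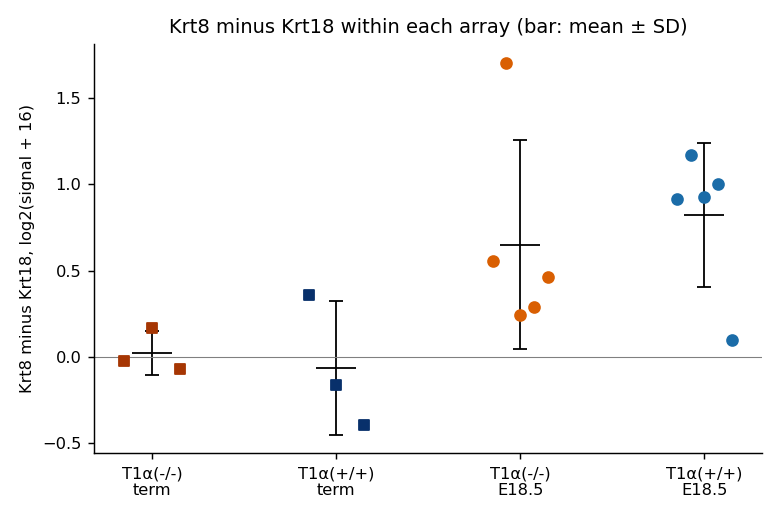
Krt8 minus Krt18 within each array on the log2(signal + 16) scale (y axis) in the 4 groups, each point 1 lung, with the mean and SD as bars. The group means were 0.03 in T1α(-/-) and -0.06 in T1α(+/+) lungs at term, and 0.65 in T1α(-/-) and 0.82 in T1α(+/+) lungs at E18.5.

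Krt8 and Krt18 were also set against Col1a1, a fibrillar collagen chain made by mesenchyme, within each array. A single probe set of Col1a1 was used, that of highest mean log2 signal, although the paper shows another. Col1a1 averaged 1434 ± 194 in T1α(-/-) and 1263 ± 402 in T1α(+/+) lungs at E18.5, and 934 ± 234 in T1α(-/-) and 933 ± 48.5 in T1α(+/+) lungs at term. Krt8 minus Col1a1 was -0.86 ± 0.24 in T1α(-/-) and -0.77 ± 0.43 in T1α(+/+) lungs at E18.5 (exact permutation p = 0.73), and -0.30 ± 0.93 in T1α(-/-) and -0.40 ± 0.22 in T1α(+/+) lungs at term (exact permutation p = 0.9). Krt18 minus Col1a1 differed between genotypes by 0.08 at E18.5 (exact permutation p = 0.754) and by 0.01 at term (exact permutation p = 1.0). After adjustment over these 4 comparisons every exact permutation p was 1.0. With 3 lungs against 3 the smallest p an exact test allows is 0.1, and T1α(-/-) lung F, at -1.33 for Krt8, lay far under lungs G (-0.04) and H (0.46).

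Krt7, the other type II chain, was 731, 637, 564, 492 and 625.3 in T1α(-/-) mice A–E and 410, 596, 738, 610 and 578 in T1α(+/+) mice I–M at E18.5, with full overlap (log2 fold change 0.07, interval -0.36 to 0.49, adjusted p = 0.981). At term it read 482, 762 and 828 in T1α(-/-) lungs and 959, 1038 and 748 in T1α(+/+) lungs. The 2 highest T1α(+/+) lungs lay above every T1α(-/-) lung and lung P fell among them. This gave the largest negative fold change of the members between genotypes, -0.42 (SE 0.28, interval -1.05 to 0.21, adjusted p = 0.9998; exact permutation p = 0.3), and the difference of the genotype effects between the times was -0.49 (SE 0.34, adjusted p = 0.9997). From E18.5 to term the fold change was 0.15 in T1α(-/-) lungs (SE 0.23, adjusted p = 0.652) and 0.64 in T1α(+/+) lungs (SE 0.27, adjusted p = 0.11), where all 3 term lungs lay above all 5 E18.5 lungs. The last value was called once array quality weights were used (0.68, adjusted p = 0.0371).

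Krt19, the smallest keratin, lacks the tail domain of the others. Its brighter probe set read 968, 967, 835, 653 and 850 in T1α(-/-) mice A–E and 537, 743, 1012, 802 and 641 in T1α(+/+) mice I–M at E18.5. The T1α(-/-) lungs were mostly in the upper part of a shared range (log2 fold change 0.21, interval -0.24 to 0.66, adjusted p = 0.913). At term the lungs spread widely, with 585, 1180.4 and 1255 in T1α(-/-) lungs and 459, 1383 and 1006 in T1α(+/+) lungs, so that 1 lung of each genotype (F and N) stood far under its group (log2 fold change 0.14, interval -0.81 to 1.10). The dimmer probe set averaged 89.5 ± 36.5 in T1α(-/-) and 64.5 ± 25.3 in T1α(+/+) lungs at E18.5 (SD, n = 5 each). Its term means were 81.8 ± 30.6 in T1α(-/-) and 76.9 ± 35.8 in T1α(+/+) lungs (SD, n = 3 each), with the same low lungs F and N. Neither probe set passed the test over time in either genotype, with adjusted p between 0.655 and 0.848.

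The basal cell keratins were at background. Krt14 read 4.6 to 13.6 in T1α(-/-) and 1.5 to 23.6 in T1α(+/+) lungs at E18.5, and 1.9 to 25.3 in T1α(-/-) and 2.7 to 5.7 in T1α(+/+) lungs at term. Krt15 read 1.0 to 3.9 in T1α(-/-) and 1.1 to 16.2 in T1α(+/+) lungs at E18.5, and 0.8 to 1.1 in T1α(-/-) and 0.8 to 3.1 in T1α(+/+) lungs at term. The second probe sets of Krt18 (0.3 to 14.4 over all lungs) and Dsp (0.3 to 20.0) were as dim, and these 4 probe sets did not pass the filter in any comparison. For 3 of these 4 (all but Krt14) the highest value came from lung I, the array with the raised background. The second Dsp probe set gave an exact permutation p of 0.0397 at E18.5 (0.4 to 2.0 in T1α(-/-) and 1.3 to 20.0 in T1α(+/+) lungs) and did not overlap at term (1.0 to 3.2 in T1α(-/-) and 0.3 to 0.4 in T1α(+/+) lungs), with opposite directions at signals near 0. Krt5, the type II partner of Krt14, read 3.1 to 47.3 over all lungs. Of the basal cell list 3 genes were tested at E18.5 and 2 at term, and 0 were called between genotypes. Over time 1 of 2 tested was called in T1α(+/+) lungs, where 18.6% of all probe sets were called. In T1α(-/-) lungs 0 of 3 were called, beside 26.7% of all. The 1 called was the integrin chain Itga6, also found outside basal cells, higher at term (0.91, adjusted p = 0.0442).

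Over time more of the genes moved, as did much of the array. In T1α(-/-) lungs 2 of the 7 probe sets were called between term and E18.5, Dsp higher and Muc1 lower, where 26.7% of 6193 probe sets were called, and the same 2 did not overlap, where 30.6% of all did not. In T1α(+/+) lungs 1 of 7 was called, Dsp, where 18.6% of 6145 probe sets were called, and 2 of 7 (Dsp and Krt7) did not overlap, beside 24.4% of all. The median fold change of the 7 was 0.15 in T1α(-/-) and 0.24 in T1α(+/+) lungs, and over all probe sets it was -0.06 in T1α(-/-) and -0.04 in T1α(+/+) lungs. The members' counts of calls were near these backgrounds.

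Dsp was the member with the clearest change. It read 591, 495 and 668 in T1α(-/-) mice F–H at term, against 182, 210.0, 195, 282 and 421 in T1α(-/-) mice A–E at E18.5. In T1α(+/+) lungs it read 512, 684 and 528 at term, against 210, 245, 265, 176 and 369 at E18.5. Every term lung exceeded every E18.5 lung of both genotypes. The log2 fold change was 1.19 in T1α(-/-) (SE 0.27, interval 0.62 to 1.76, adjusted p = 0.0073) and 1.16 in T1α(+/+) lungs (SE 0.28, interval 0.58 to 1.75, adjusted p = 0.00957), a 2.28-fold and a 2.24-fold rise. Between genotypes Dsp differed by 0.00 at E18.5 (interval -0.52 to 0.53) and 0.03 at term (interval -0.53 to 0.58), and its rise differed between genotypes by 0.02 (interval -0.77 to 0.81, adjusted p = 0.9997). Leaving out T1α(+/+) term lung O took the T1α(+/+) rise to 1.04 and its adjusted p to 0.0556.

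Of 14 other desmosome and plakin genes on the array, 11 were tested in T1α(-/-) lungs, with 1 higher and 2 lower at term, a share close to the 26.7% of all probe sets called. Pkp2, a plakophilin that binds desmoplakin, was higher (1.37, SE 0.21, adjusted p = 0.00109), and Jup (plakoglobin) and Cdsn (corneodesmosin) were lower (-0.80 and -0.68, adjusted p = 0.0305 and 0.0202). In T1α(+/+) lungs 9 were tested, with 0 higher and 1 lower, beside 18.6% of all probe sets called. The 1 was the desmosomal cadherin Dsg2, at 29.6 to 64.2 at term and 73.9 to 124.5 at E18.5, which passed the filter only through E18.5, so that a lower level at term was favoured by the filter. Pkp2 gave 0.62 in T1α(+/+) lungs (adjusted p = 0.165). The median of the list was -0.06 in T1α(-/-) and 0.44 in T1α(+/+) lungs. Between genotypes 0 of 10 were called at E18.5 and 0 of 10 at term, with Pkp2 at -0.51 (adjusted p = 0.858) and Jup at 0.47 (adjusted p = 0.858) at E18.5.

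Muc1 was the only one of the 7 probe sets above the filter with an unadjusted limma p under 0.05 between genotypes. At E18.5 it read 2837, 3283, 2478, 1450.0 and 1936 in T1α(-/-) mice A–E and 1170.4, 1252, 1321, 2717 and 1365 in T1α(+/+) mice I–M. All 5 T1α(-/-) lungs were above 4 of the 5 T1α(+/+) lungs, and T1α(+/+) lung L lay among the highest T1α(-/-) lungs. The means were 2397 ± 724 in T1α(-/-) and 1565 ± 648 in T1α(+/+) lungs (SD, n = 5 each), a log2 fold change of 0.63 (SE 0.28, adjusted p = 0.858; exact permutation p = 0.0714), which did not pass the threshold. At term Muc1 read 903, 834 and 1361 in T1α(-/-) lungs and 762, 507 and 1389 in T1α(+/+) lungs, with wide overlap (0.30, interval -0.52 to 1.13, adjusted p = 0.9998; exact permutation p = 0.5). The type II cell list leaned the same way at E18.5, with 5 of 5 tested genes positive, 0 called and a median of 0.54. Its summed signal was 21479 to 35089 in T1α(-/-) and 17360.1 to 30819 in T1α(+/+) lungs. At term it again had 5 of 5 positive, with a median of 0.18. The lung epithelium list had 9 positive and 1 negative at E18.5, with a median of 0.10, and the airway secretory and ciliated list 2 positive and 2 negative. The part of these lists in the Muc1 difference was not tested.

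Muc1 fell from E18.5 to term in T1α(-/-) lungs, by 1.18 on the log2 scale (SE 0.28, interval -1.79 to -0.57, adjusted p = 0.00988), a level at term of 0.442 times that at E18.5, and all 3 term lungs lay under all 5 E18.5 lungs. In T1α(+/+) lungs the fold change was -0.85 (SE 0.36, interval -1.62 to -0.09, adjusted p = 0.107) with overlap, through lung P at term. It passed the threshold without lung P (-1.23, adjusted p = 0.0316) and with array quality weights (-1.16, adjusted p = 0.0148), and without lung O it was -0.52 (adjusted p = 0.41). No difference in this change between genotypes was detected (-0.32, interval -1.32 to 0.67, adjusted p = 0.9997). In T1α(-/-) lungs the mean level of Muc1 lies in the range of 1600 to 3200, whose probe sets were dimmer on term arrays as given above. In T1α(+/+) lungs it lies between 800 and 1600, where the median fold change of 208 probe sets was 0.09. After quantile normalization, which gives every array the same distribution of signals, the fall in T1α(-/-) lungs was -1.07 with an adjusted p of 0.0108, and the fold change in T1α(+/+) lungs was -0.86 with an adjusted p of 0.0913.

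None of the other mucins tested was called lower at term. Of 6 other mucin or mucin-like genes on the array 3 were tested, and Muc3 (1.6 to 10.3 by group mean) and Muc5ac, a gel-forming airway mucin (1.43 to 6.34), were at background. Cd164, a sialomucin, was higher at term in both genotypes (1.43 in T1α(-/-), adjusted p = 0.00186, and 1.51 in T1α(+/+) lungs, adjusted p = 0.0022). None of the 3 was called between genotypes at either time, with 0.39 (adjusted p = 0.858) for Muc13 at E18.5.

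Of other lung epithelium genes 11 were tested over time, and 6 were higher and 1 lower at term in T1α(-/-) lungs, as in T1α(+/+) lungs, where 26.7% and 18.6% of all probe sets were called in T1α(-/-) and T1α(+/+) lungs. The tight junction claudins Cldn4 and Cldn3 were higher, Cldn4 at 1.44 in T1α(-/-) (adjusted p = 0.00242) and 1.82 in T1α(+/+) lungs (adjusted p = 0.00601) and Cldn3 at 1.04 in T1α(-/-) (adjusted p = 0.00831) and 1.34 in T1α(+/+) lungs (adjusted p = 0.0101). The claudin Cldn7 was not called (0.05 in T1α(-/-), adjusted p = 0.91, and 0.13 in T1α(+/+) lungs, adjusted p = 0.786). Prss8 was the 1 called lower (-1.02 in T1α(-/-), adjusted p = 0.0435, and -1.37 in T1α(+/+) lungs, adjusted p = 0.01265). In each genotype 8 of the 11 fold changes were positive and 3 negative. The transcription factor Elf5 gave 1.15 in T1α(-/-) (adjusted p = 0.0271) and 1.38 in T1α(+/+) lungs (adjusted p = 0.00172). The list's median was 0.69 in T1α(-/-) and 0.92 in T1α(+/+) lungs, and its summed signal ran from 2592 to 3519 in T1α(-/-) and 2617 to 3754 in T1α(+/+) lungs at term, and from 2029.7 to 2264 in T1α(-/-) and 1695 to 2566 in T1α(+/+) lungs at E18.5. Its part in the rise of Dsp was not tested. Between genotypes 0 of 10 were called at E18.5 and 0 of 11 at term. Of the lists for type I, type II, airway secretory and ciliated, mesothelial and mesenchymal cells and for liver, heart, muscle or thymus, the only gene called between genotypes was Pdpn. As given above, it passed the filter only through T1α(+/+) lungs.

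Of the 27 other keratins on the array, none was called between genotypes (14 tested at E18.5, 9 at term). Over time 2 of 13 were called lower at term in T1α(-/-) lungs (Krt20, a keratin of gut and urothelium, and Krt35) and 2 of 11 in T1α(+/+) lungs (Krt36 and Krt35), beside 26.7% of all probe sets called in T1α(-/-) and 18.6% in T1α(+/+) lungs. Krt20 in T1α(-/-) lungs, at 3.6 to 14.1 at term and 34.5 to 86.1 at E18.5, passed the filter only through E18.5, so that a lower level at term was favoured by the filter. The same holds for Krt35, at 39.3 to 60.0 at term and 62.2 to 105.0 at E18.5 in T1α(-/-) lungs and 31.5 to 48.4 at term and 53.4 to 102.8 at E18.5 in T1α(+/+) lungs. Krt36, like Krt35 known as a hair keratin, gave -1.30 in T1α(+/+) (adjusted p = 0.00962) and -0.96 in T1α(-/-) lungs (adjusted p = 0.0868). In T1α(+/+) lungs Krt36 read 48.6 to 62.0 at term and 69.4 to 225.1 at E18.5. It too passed the filter there only through E18.5, so that a lower level at term was favoured. Among other intermediate filaments, Lmna, the lamin of the nuclear envelope, was higher at term (1.02 in T1α(-/-), adjusted p = 0.00447, and 1.18 in T1α(+/+) lungs, adjusted p = 0.0185) and Nes (nestin) was lower in T1α(-/-) lungs (-1.29, adjusted p = 0.00136) and gave -0.95 in T1α(+/+) lungs (adjusted p = 0.0654). Of 9 genes listed as partners or regulators of filaments and tested over time, 2 were called in each genotype. Ywhaz, a 14-3-3 protein, gave -0.87 in T1α(-/-) (adjusted p = 0.0696) and -1.45 in T1α(+/+) lungs (adjusted p = 0.0234). Sfn, another 14-3-3 protein, was called lower in T1α(+/+) lungs, at 9.5 to 28.1 at term and 57.1 to 120.1 at E18.5, and it too passed the filter only through E18.5. The chaperone Dnajb6, a partner of Krt18, gave 0.94 in T1α(-/-) (adjusted p = 0.00861) and 0.82 in T1α(+/+) lungs (adjusted p = 0.0656). Krtcap2 (keratinocyte associated protein 2), for which no tie to filaments is shown here, gave -0.995 in T1α(-/-) (adjusted p = 0.0281) and -0.73 in T1α(+/+) lungs (adjusted p = 0.146). Prkcd, a kinase known to act on keratins, was the regulator of lowest p at E18.5 between genotypes (0.57, SE 0.22, adjusted p = 0.858).

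Across lungs of 1 group, Krt8 varied with Krt19 and with Krt7. Deviations from the group means were compared over the 16 arrays in all 15 pairs of the 6 detected genes, by permutation within groups and with p adjusted over the pairs. Krt8 and Krt19 gave Pearson's r = 0.779 and Spearman's rho = 0.803 (permutation adjusted p = 0.0015 and 0.006), and r = 0.718 without lungs K and F. Krt7 and Krt8 gave r = 0.803 and rho = 0.738 (permutation adjusted p = 0.022 and 0.0565), and r = 0.669 without lungs I and F. Krt8 and Krt18 reached r = 0.589 and rho = 0.529 (permutation adjusted p = 0.153 and 0.235), and r = 0.314 without lungs K and F. All genes of a lung share its array and scaling. Dsp and Muc1 gave r between -0.05 and 0.33 for any pair of them with a keratin.

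**Figure D4:**
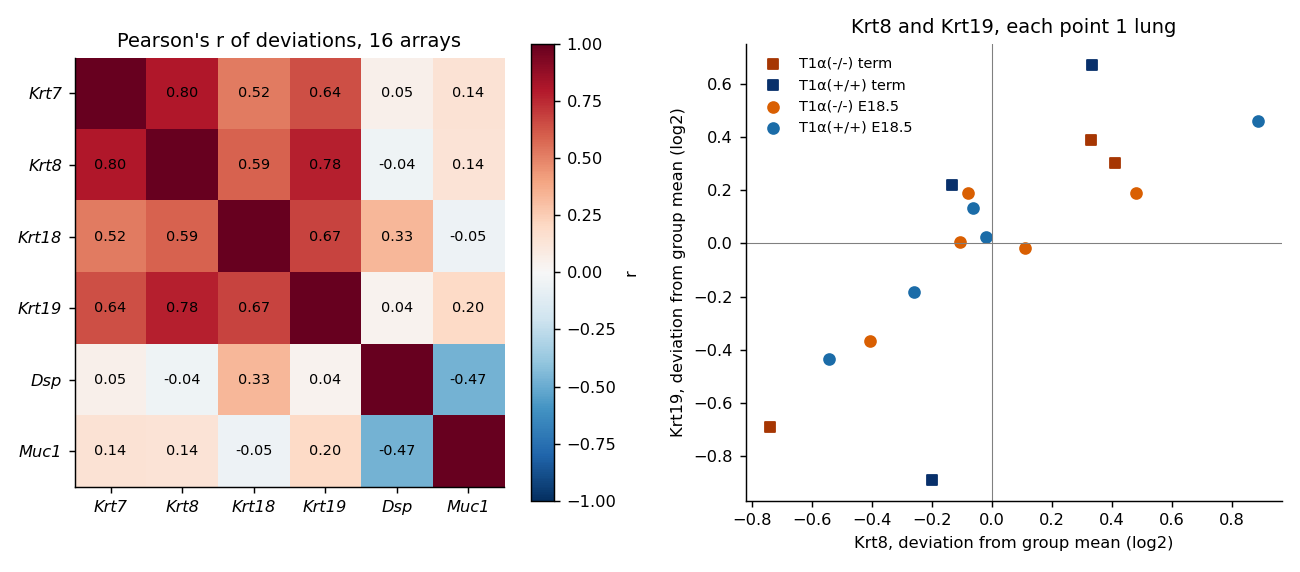
Left, Pearson's r of deviations from the group mean between the 6 detected genes over 16 arrays, by colour and value. Right, the deviations of Krt8 (x axis) and Krt19 (y axis) in log2 units, each point 1 lung: lung K of T1α(+/+) at E18.5 lies at the right and lung F of T1α(-/-) at term at the lower left (r = 0.779).

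Lung F was the lowest and lung K the highest of its group in all 4 of Krt7, Krt8, Krt18 and Krt19. Summed over these 4, the signal was 1945 in T1α(-/-) lung F, against 3801 and 3993 in lungs G and H, and 3746 in T1α(+/+) lung K, against 1670 to 2412 in the 4 other T1α(+/+) lungs at E18.5. The lung epithelium list was lowest in F too (2592, against 3519 and 3328 in G and H) and highest in K (2566, against 1695 to 2065). The mesenchyme list was highest in both as well, at 8818 in F, against 7472 and 7241 in G and H, and at 11160 in K, against 6849 to 9747. Whether these lungs held less or more epithelium was not tested. In T1α(+/+) term lungs the order differed: lung N had the lowest keratin sum (2498) and the highest epithelium sum (3754).

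Another keratin pair varied widely between lungs. Krt4 and Krt13 are the keratin pair of stratified, esophagus-like epithelium, and were looked at for their spread after the values were seen. Krt4 read 122, 202, 158, 1049 and 1916 in T1α(-/-) mice A–E and 803, 1121, 510.2, 115 and 958 in T1α(+/+) mice I–M at E18.5. At term it read 109, 129 and 123 in T1α(-/-) mice F–H and 80.6, 756 and 105 in T1α(+/+) mice N–P. Krt13 read 24.5, 8.6, 2.9, 268 and 805.0 in T1α(-/-) mice A–E, and 102, 199, 48.7, 2.1 and 231 in lungs I to M of T1α(+/+). Krt4 and Krt13 were both low in lungs A, B, C and L and the lungs formed separate clusters, so no correlation was computed.

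The 4 E18.5 lungs with the highest Muc1 were B, A, L and C, which also had the lowest Krt4, and 3 of them are T1α(-/-) and 1 is T1α(+/+). The part of this in the E18.5 difference in Muc1 was not tested. Dsp was highest at E18.5 in lungs E and M, where Krt4 read 1916 and 958, while lungs J and D, with Krt4 of 1121 and 1049, had Dsp of 245 and 282. Lungs I and K, with Krt4 of 803 and 510.2, had Dsp of 209.6 and 265. Lungs A, B, C and L, of lowest Krt4, had Dsp of 182, 210.0, 195 and 176. A relation of Dsp to Krt4 at E18.5 was not tested. At term Krt4 was high only in lung O (756), which also had the highest Dsp of that time (684). In the other term lungs Krt4 read 80.6 to 129 and Dsp 495 to 668. A relation of the 2 genes at term was not tested. The list of squamous markers that holds Krt4 and Krt13 had 14 genes on the array, with a summed signal of 7718 to 12833 in T1α(-/-) and 5314 to 11036 in T1α(+/+) lungs at E18.5, and 4018 to 7359 in T1α(-/-) and 3223 to 6498 in T1α(+/+) lungs at term, and 0 of its 8 genes tested at E18.5 and 5 at term were called between genotypes. Most of the sum came from the 1 probe set of Sprr1b, at 6658 to 11510 in T1α(-/-) and 3327 to 10370 in T1α(+/+) lungs at E18.5, and it did not follow Krt4, since lung B summed to 12430 with Krt4 at 202. Of the cornified skin genes, Lor averaged 104 in T1α(-/-) and 95.6 in T1α(+/+) lungs at term and 289 in T1α(-/-) and 235 in T1α(+/+) lungs at E18.5. Ivl and Krt16 were at background, at means of 2.9 to 8.14 over the 4 groups.

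**Figure D5:**
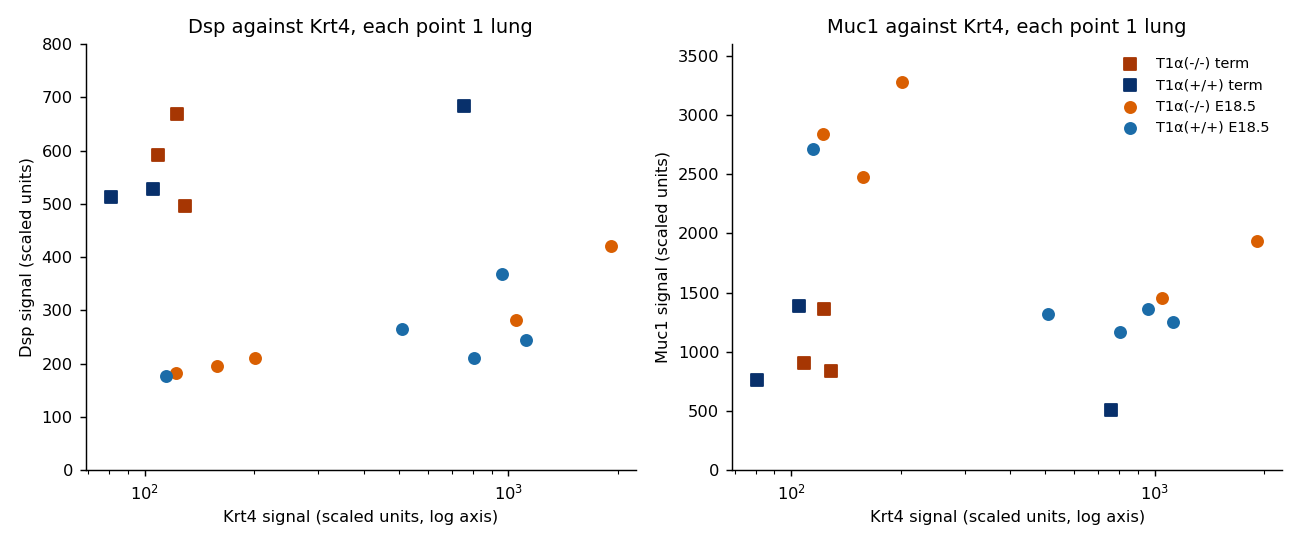
Signals of Dsp (left) and Muc1 (right) on the y axes against Krt4 on a log x axis, each point 1 lung, coloured by genotype and time. The E18.5 lungs with Muc1 of 2478 to 3283 lie at the left. Dsp at term lies between 495 and 684, and only lung O has high Krt4 at that time.

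The 5 genes whose signals over the 16 arrays were most like Krt8 were Mzt2, Grcc10, Ppdpf, Trmt1 and Trpc4ap, with Pearson's r from 0.833 to 0.815 among the probe sets tested, other members left out. Those most like Krt18 were Ctsz, Arhgef1, Cst3, Tapbp and Ddr1, with r from 0.854 to 0.797, and no gene stood in both sets. Ctsz and Cst3 are a lysosomal protease and the cysteine protease inhibitor cystatin C, and Ddr1 is a collagen receptor of epithelia. These likenesses are descriptions over 16 arrays that share the 4 groups.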

How the data were processed

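The authors made 1 signal intensity per probe set with Microarray Suite 5.0 from perfect match and mismatch probes of the U74Av2 array, scaled each array and deposited the linear values. Detection calls are not used here. Each array has a trimmed mean between 100.04 and 100.06. The replicates are separate lungs. The labels give no batch, litter or pairing. The lowest correlation between arrays was 0.8 and the largest share of identical signals in a pair was 1.161%, so no array was taken for a repeat of another.

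Symbols came from the platform annotation, updated by gene ID: 10833 probe sets had 1 symbol, 396 several and 1193 none, and 66 were controls, left out of the tests. Signals were tested as log2(signal + 16) with limma 3.58.1 (lmFit, eBayes with an intensity trend) in R 4.3.3 over all probe sets passing the filter. Adjusted p is Benjamini-Hochberg over all of them, 2-sided, with a threshold of 0.05. The intervals are 95% intervals of a single probe set, not adjusted. Exact permutation tests were 2-sided, on mean log2 values; with 5 against 5 they cannot go below 0.00794 and with 3 against 3 below 0.1. Correlations used 100000 permutations within groups (Python 3.11.15, scipy 1.17.1). The scripts were tested on simulated data.

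The members and the lists were chosen with earlier results of these data known. Named were all member probe sets, up to 3 genes of lowest p of each list in the genotype comparisons and over time in T1α(+/+) lungs, Col1a1, Pdpn and the 5 genes most like Krt8 and Krt18. Krt13, Muc3, Muc5ac, Ivl, Krt16, Krt5, Cldn7, Prss8 and the lungs' Krt4 values were added after the values were seen, as were list genes called over time in T1α(-/-) lungs only. Alternatives were other pseudocounts, normalizations, filters, variance models and weights, all arrays in 1 fit, the test of the methods on linear signals and leaving out each array. Promoter windows are RefSeq's for GRCm38.p6.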

Additional observations from a re-analysis of the deposited data

Results flagged for a closer look

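In 22 groups of 5 lungs (11 probe sets in both E18.5 groups), 5 had a lone lung far above the others. The rule would flag about 1 in 20 groups of independent values with a normal spread. These are linear signals and the groups share arrays, so that rate does not apply to this count. Krt8 stood at 1312.6 in T1α(+/+) lung K at E18.5, the lung in which Krt7, Krt18 and Krt19 were also highest. Muc1 stood at 2716.8 in T1α(+/+) lung L at E18.5, the T1α(+/+) lung of lowest Krt4 at that time. The other 3 were at background signals: Krt14 at 13.6 in T1α(-/-) lung D, and Krt15 at 16.2 and the second Dsp probe set at 20.0 in T1α(+/+) lung I, whose array had the highest signals for absent bacterial RNA. No array was left out of the fits for these values.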

How the results depend on the processing

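No paired analysis was possible because the labels give the lungs letters and the groups share no replicate number. Counts of called members were within 1.5 times the reported value in 92 of 96 alternatives, with 0 between genotypes and 2 over time in T1α(-/-) lungs in all of them. The other 4 concern term over E18.5 in T1α(+/+) lungs, where the count was 3 with array quality weights and ran from 0 to 2 when 1 lung was left out. Array quality weights also took the count over all probe sets there to 1939, against 1140, and leaving out lung N took it to 334. The cause was not tested. Median centring moved the median of all probe sets in that comparison to 0.10, against -0.04. Adjusted p for Dsp ran from 0.00227 to 0.0325 in T1α(-/-) and from 0.0038 to 0.0556 in T1α(+/+) lungs, and for Muc1 from 0.0029 to 0.0479 in T1α(-/-) and from 0.0148 to 0.41 in T1α(+/+) lungs.

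Of 667 alternatives for single fold changes 62 reversed a direction, none of a called value, and the largest reported size among those was 0.33. With array quality weights, Dsp between genotypes at E18.5 was -0.021, at term Krt19 was -0.025 (dimmer probe set) and -0.049 (brighter probe set) and Krt8 was -0.19, and over time Krt19 (brighter) was -0.069 and Krt7 -0.0040 in T1α(-/-) and Krt8 0.086 in T1α(+/+) lungs. With median centring, the Dsp difference of genotype effects was -0.011, and over time Krt19 (dimmer) was 0.015 and Krt8 0.033 in T1α(-/-) and Krt8 0.14 in T1α(+/+) lungs. With quantile normalization, Dsp at E18.5 was -0.027. Leaving out 1 lung gave the following ranges between genotypes: at E18.5, -0.18 to 0.14 for Dsp and -0.052 to 0.15 for Krt7. At term they were -0.072 to 0.15 for Dsp, -0.33 to 0.33 for Krt18, -0.27 to 0.40 and -0.30 to 0.49 for Krt19, -0.13 to 0.44 for Krt8 and -0.029 to 0.68 for Muc1. For the difference of genotype effects they were -0.11 to 0.21 for Dsp, -0.64 to 0.015 for Krt18, -0.64 to 0.031 and -0.51 to 0.28 for Krt19, -0.29 to 0.30 for Krt8 and -0.66 to 0.055 for Muc1. Over time they were -0.29 to 0.20 and -0.025 to 0.52 for Krt19 and -0.28 to 0.30 for Krt8 in T1α(-/-) lungs, and -0.047 to 0.55 and -0.10 to 0.68 for Krt19 and -0.17 to 0.22 for Krt8 in T1α(+/+) lungs (Krt19 as the dimmer, then the brighter probe set). The fit of all arrays together was not run separately for the difference of genotype effects, which already uses it. The number of lungs limits precision, and probe sets below the filter have no usable level.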
